A study of Mus musculus with 4 samples.

Results

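Vascular, blood and immune cell miRNAs were followed in mouse hippocampus as a reading of its non-neural content. They are 10 of the 705 mouse miRNA probes on the array, chosen by exact name. Of these, 5 report vessel miRNAs (mmu-miR-126-3p, mmu-miR-126-5p, mmu-miR-143, mmu-miR-145 and mmu-miR-214), 2 red cell miRNAs (mmu-miR-451 and mmu-miR-486) and 3 immune cell miRNAs (mmu-miR-150, mmu-miR-21 and mmu-miR-146b), where the prefix mmu for mouse is left out below. The tissue came from wild-type C57BL/6J mice, a common inbred strain, trained in the Morris water maze, where a mouse learns the place of a hidden platform. Mice with good performance gave 2 arrays and mice with poor performance gave 2 arrays, all from hippocampus taken right after training, and the series asks how individual mice come to differ in spatial learning. The labels name no treatment and no genetic change in either group. They give 4 mice per group, without saying how the mice were divided over the 2 arrays, so the p-values below rest on differences among arrays that could be technical repeats. The labels do not say the age of the mice, or whether blood was flushed from the brain before dissection.

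miR-126 is made from an intron of Egfl7, a gene of endothelial cells, the lining of blood vessels, and it supports the response of these cells to vascular growth factors. miR-143 and miR-145 come from a shared transcript and maintain the contractile state of smooth muscle and pericytes in vessel walls. miR-451 and miR-486 are highly abundant in maturing red cells, and miR-451 is cut by Argonaute2 in place of Dicer. miR-150 is abundant in mature lymphocytes, where it restrains the transcription factor Myb, and miR-146 family members are induced by NF-kB and damp its upstream adaptors.

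The mature sequences of the 5 members that matched RefSeq by name are shown, together with miR-146a, because the seed (bases 2 to 8, in capitals) sets which targets a miRNA can pair with and the whole sequence sets what a probe can capture. Sequences are RefSeq's, in its GRCm38.p6 build of the mouse genome, written 5′ to 3′.
miR-126-3p: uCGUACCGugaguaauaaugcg
miR-214: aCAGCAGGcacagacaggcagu
miR-451: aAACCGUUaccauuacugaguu
miR-21: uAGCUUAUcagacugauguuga
miR-146b: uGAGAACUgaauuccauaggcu
miR-146a: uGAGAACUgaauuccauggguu

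In that build miR-126-3p lies at chr2:26591402-26591423 on the plus strand, inside Egfl7, and miR-214 at chr1:162223438-162223459 on the plus strand, inside the long noncoding RNA gene Dnm3os, which itself lies within Dnm3. miR-451 lies at chr11:78073186-78073207 on the plus strand, with the miR-144 gene as its close neighbour. miR-21 lies at chr11:86584120-86584141 on the minus strand, within the span of Vmp1, and miR-146b at chr19:46342790-46342811 on the plus strand. The array names no build, so these positions are those of the RefSeq entries. The 5 printed members had 5 different seeds. miR-146b and miR-146a share their seed and differ at 2 of 22 bases, A18G and C21U (the base of miR-146b, its position from the 5′ end, then the base of miR-146a). Their probes may therefore capture each other's RNA, and the values of both are uncertain in that respect.

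All 10 members were detected in both groups, but at low brightness. Raw intensity, the linear brightness of a spot before normalization, had a mean of 63.8 over blank spots, with a range from 54 to 75. Each probe had 3 spots on each array, 12 in all. The brightest member, miR-126-5p, averaged 7.53 times the blank mean and miR-145 6.04 times, while miR-486 reached 1.41 times and miR-146b 1.34 times. Every spot of 8 members carried the flag 0 that detected spots have, whereas miR-486 had it on 11 of 12 spots and miR-146b on 10 of 12. The lowest miR-146b spots, 74 in good performers and 72 in poor performers, lay within the range of blank spots. Brightness differs between probes for reasons of labelling and binding, so it ranks no member above another in abundance.

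**Figure D1:**
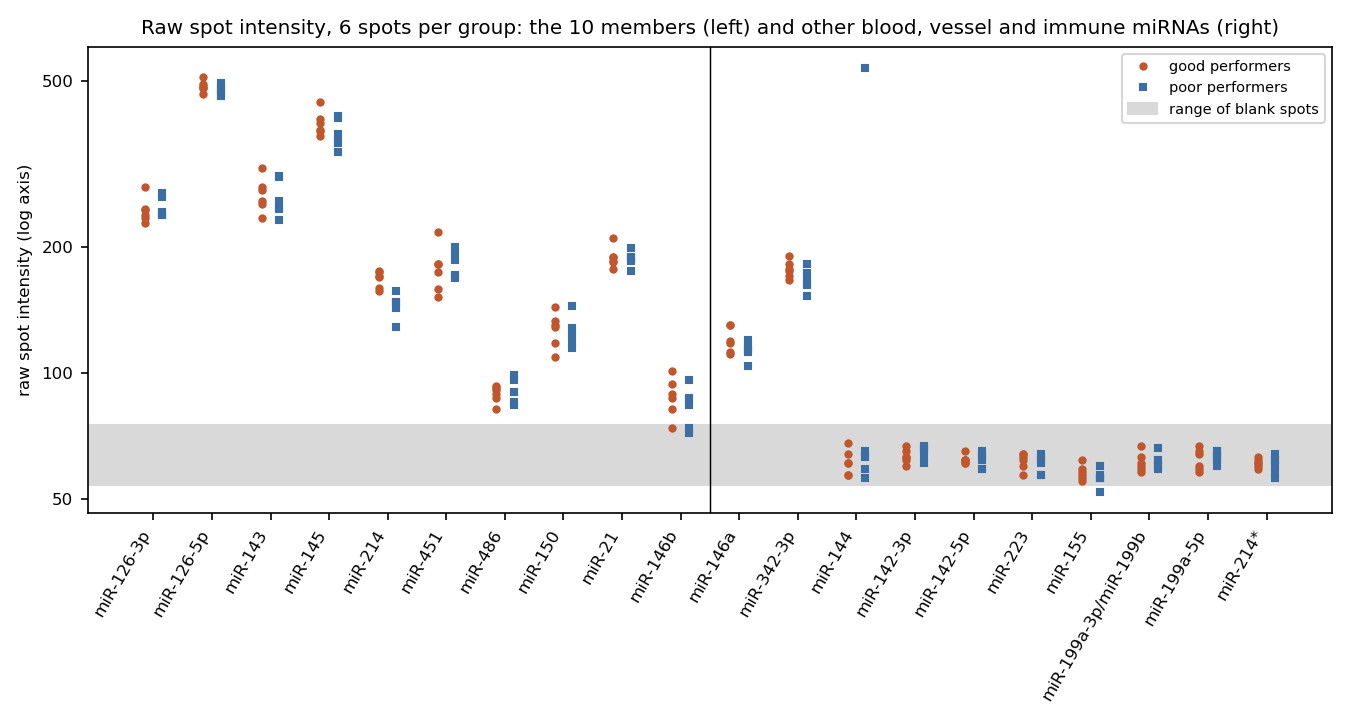
Raw intensity of single spots on a log axis for good performers (circles) and poor performers (squares), 6 spots per group and probe, with the range of blank spots (54 to 75) as a grey band. The 10 members are left of the vertical line. On the right, miR-146a and miR-342-3p lie above the band, and the others lie at blank level except for a single miR-144 spot at 536.

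Neuronal markers were detected on every array. miR-124, a miRNA largely restricted to neurons, had raw intensities of 23072 and 22655 in good performers and 21438 and 20431 in poor performers. The probes of miR-9 and miR-128, also neuronal, were detected on all 12 spots. Between 310 and 330 probes were detected per array, and the added spike-in RNA was brighter in good performers (mean raw intensity 12169 and 12862) than in poor performers (10677 and 11126). How the arrays are scaled to each other therefore matters for differences as small as those below.

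The comparison of good with poor performers asked whether vessel, blood or immune content of the hippocampal samples went with learning performance. None of the 10 members passed the test (limma, Benjamini-Hochberg over all 316 tested probes, adjusted p under 0.05), and 2 of the 10, miR-126-3p and miR-214, were at an unadjusted p under 0.05. Over all tested probes 5.06% passed, and 20.9% were at an unadjusted p under 0.05, so 2 of 10 is close to that background. The log2 fold changes of the members, good over poor performers, ran from -0.090 to 0.18 with a median of -0.036 (0.016 without normalization), against a median of -0.0072 over all 316 probes, whose own range was -0.64 to 0.62. A lower mean in good performers was found for 8 of 10 members and for 53.8% of all tested probes. In tissue, fewer cells of a type and less RNA per cell cannot be told apart.

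**Figure D2:**
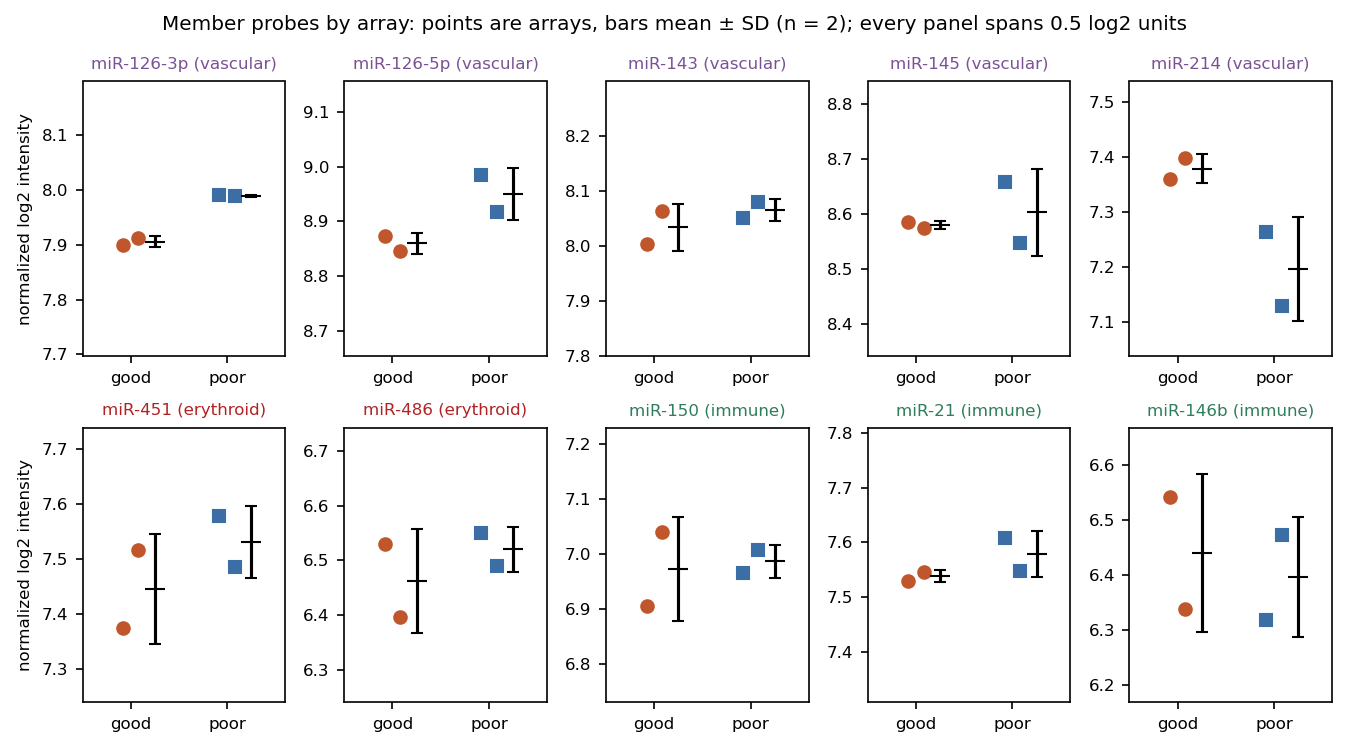
Normalized log2 intensity of each member on each array, good performers left of poor performers, with mean and SD (n = 2); each panel spans 0.5 log2 units. The groups stand apart in miR-126-3p, miR-126-5p and miR-21 (good performers lower) and in miR-214 (good performers higher), and they overlap in the other 6.

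The 2 endothelial probes had lower values in good performers by less than 0.1 log2 units, without passing the test. miR-126-3p, which represses inhibitors of growth factor signalling in endothelium, had a normalized log2 intensity of 7.90 and 7.91 in good performers and of 7.99 and 7.99 in poor performers. Both good-performer arrays were below both poor-performer arrays, with means of 7.91 ± 0.0096 and 7.99 ± 0.0012 (SD, n = 2 each). The difference, good minus poor, was -0.083 ± 0.027 log2 units (SE; adjusted p = 0.209 by limma), a ratio of 0.944 with a 95% interval of 0.897 to 0.994. The raw intensities did not separate: they were 236.7 and 254.0 in good performers, which lay on either side of the 248.0 and 250.7 of poor performers. In the authors' normalized table the same fit gave -0.14 (adjusted p = 0.047), past the threshold. All tested probes had a median of -0.083 in that table, where 11.7% of them passed, and after centring each array of it on its median the value was -0.022 (adjusted p = 0.731).

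miR-126-5p, the other strand of the same hairpin, had a log2 intensity of 8.87 and 8.85 in good performers and of 8.98 and 8.92 in poor performers. Its groups also stood apart, with good performers lower. Good minus poor came to -0.090 ± 0.037 log2 units (SE; adjusted p = 0.268 by limma; 95% interval -0.19 to 0.011), which differed by 0.0071 from the value of miR-126-3p. On the raw scale the order was the opposite, 478.7 and 492.3 in good performers against 478.3 and 472.7 in poor performers. The 2 strands share a precursor and the same arrays, so they are not independent readings.

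Among miRNAs of smooth muscle and pericytes, the clustered miR-143 and miR-145 did not pass, and their groups overlapped in the reported setting. Their genes neighbour each other inside Carmn, a noncoding RNA gene of smooth muscle. miR-143 had a log2 intensity of 8.004 and 8.063 in good performers and of 8.052 and 8.079 in poor performers, with 1 good-performer array inside the range of the poor performers. miR-145 had 8.59 and 8.57 in good performers, between the 8.66 and 8.55 of poor performers. Good minus poor was -0.032 ± 0.035 log2 units for miR-143 and -0.023 ± 0.048 for miR-145 (SE; adjusted p = 0.681 and 0.856 by limma), and miR-143 minus miR-145 in this difference was -0.0092. The 95% interval ran from -0.13 to 0.065 for miR-143 and from -0.16 to 0.11 for miR-145.

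miR-214, expressed in mesenchymal and fibroblast-like cells, had a difference of 0.18 log2 units, with good performers higher. This was the largest of the 10 in size in the reported setting, but with spike-in scaling (0.058) and in the authors' normalized table (0.051) it was smaller than that of miR-451 (-0.19 and -0.21). Its log2 intensity was 7.36 and 7.40 in good performers and 7.26 and 7.13 in poor performers, and both good-performer arrays were higher. In the authors' normalized table its groups overlapped, at 155.5 and 163.4 in good performers and 156.0 and 151.6 in poor performers. The means were 7.38 ± 0.026 in good and 7.20 ± 0.094 in poor performers (SD, n = 2 each), which gave 0.18 ± 0.055 (SE; adjusted p = 0.196 by limma), or 1.14-fold with a 95% interval of 1.02 to 1.26. Raw intensity was 162.7 and 173.0 in good performers and 149.3 and 141.3 in poor performers. Single spots ranged from 157 to 175 in good performers and from 129 to 157 in poor performers, so the 2 sets of 6 spots met only at 157. By size of change miR-214 ranked 34 of 316 probes. The value was above 0 in all 20 alternative settings, from 0.051 in the authors' normalized table to 0.27 with an offset of 1. Not all of these could turn its sign. The filters, the use of flag 0 spots alone, the variance model and the replicate block left its value at 0.18. As its groups did not overlap in the reported setting, leaving out 1 array could not turn the sign either. No setting with all 4 arrays put it past the threshold (lowest adjusted p = 0.057 by limma, with a trended and robust variance model).

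The probes of the miR-199 family and of the opposite strand of miR-214 were not detected. Dnm3os also carries a miR-199a gene, the nearest miRNA neighbour of miR-214 in the RefSeq table. The 3 miR-199 probes, for miR-199a-3p with miR-199b, miR-199a-5p and miR-199b*, had 0 of 36 spots at flag 0 and raw intensities from 55 to 67. miR-199b* does not bear the name of the miR-199a gene in Dnm3os. The probe of miR-214*, the opposite strand, had 0 of 12 spots at flag 0. All of these spots lay within the range of blank spots in both groups, while every miR-214 spot lay above it. These 4 probes were looked up after values were seen.

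Red cell miRNAs did not separate the groups in the reported setting or on the raw scale. miR-451 had a log2 intensity of 7.37 and 7.52 in good performers and of 7.58 and 7.48 in poor performers. The good-performer arrays spanned a wider range, and the groups overlapped. Good minus poor was -0.086 ± 0.065 log2 units (SE; adjusted p = 0.550 by limma), a ratio of 0.942 with a 95% interval of 0.831 to 1.07. Raw intensities were 164.3 and 191.0 in good performers, on either side of the 183.3 and 179.7 of poor performers. The difference rested on which array was used: it was -0.015 without good performers replicate 1 and -0.16 without good performers replicate 2.

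miR-486, which lies inside the erythroid ankyrin gene Ank1, had a log2 intensity of 6.53 and 6.40 in good performers and of 6.55 and 6.49 in poor performers. These groups overlapped too. Good minus poor was -0.057 ± 0.058 log2 units (SE; adjusted p = 0.641 by limma). Raw means were 91.3 and 86.7 in good performers and 91.3 and 90.0 in poor performers, and single spots ranged from 82 to 93 in good performers and from 84 to 99 in poor performers. The array lowest in miR-451, good performers replicate 1, was not the lowest in miR-486, which was good performers replicate 2. The authors' deposited table gave log2 ratios of -0.21 for miR-451 and -0.14 for miR-486. There the groups of both stood apart, with good performers lower. miR-451 had 153.3 and 171.0 in good performers and 197.7 and 176.4 in poor performers. miR-486 had 89.1 and 81.9 in good performers and 94.9 and 92.9 in poor performers. All tested probes had a median of -0.083 in that table.

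Another red cell miRNA, miR-144, is made from the same transcript as miR-451 and was not tested, as only 1 of its 12 spots had flag 0. That spot read 536 on poor performers replicate 2, where the other 2 spots of the same probe read 56 and 65. Its spots on the other 3 arrays lay between 57 and 68. The mean of this probe on that array, 219.0, thus came from a single spot, and without it all miR-144 spots lay at blank level. miR-144 was singled out after its values were seen.

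Immune cell miRNAs did not pass either, and 2 of the 3 overlapped between the groups in the reported setting. miR-150 had a log2 intensity of 6.91 and 7.04 in good performers, on either side of the 6.97 and 7.01 of poor performers. Good minus poor was -0.014 ± 0.056 log2 units (SE; adjusted p = 0.934 by limma; 95% interval -0.17 to 0.14). miR-21, which is found in many cell types and is induced in reactive glia and inflamed tissue, had 7.53 and 7.55 in good performers and 7.61 and 7.55 in poor performers. The groups of miR-21 stood apart by the narrowest of margins, 7.546 in good performers against 7.549 in poor performers. For miR-21 the difference was -0.040 ± 0.034 log2 units (SE; adjusted p = 0.577 by limma).

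miR-146b, the dimmest member, had a log2 intensity of 6.54 and 6.34 in good performers and of 6.32 and 6.47 in poor performers. Its arrays alternated between the groups and had the widest spread of the members, up to 0.14 (SD, n = 2). Its difference was 0.044 ± 0.094 log2 units (SE; adjusted p = 0.857 by limma; 95% interval -0.22 to 0.30). The probe of its near-copy miR-146a had 6.89 and 6.89 in good performers and 6.86 and 6.84 in poor performers, a difference of 0.041 ± 0.028 log2 units (SE; adjusted p = 0.515).

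**Figure D3:**
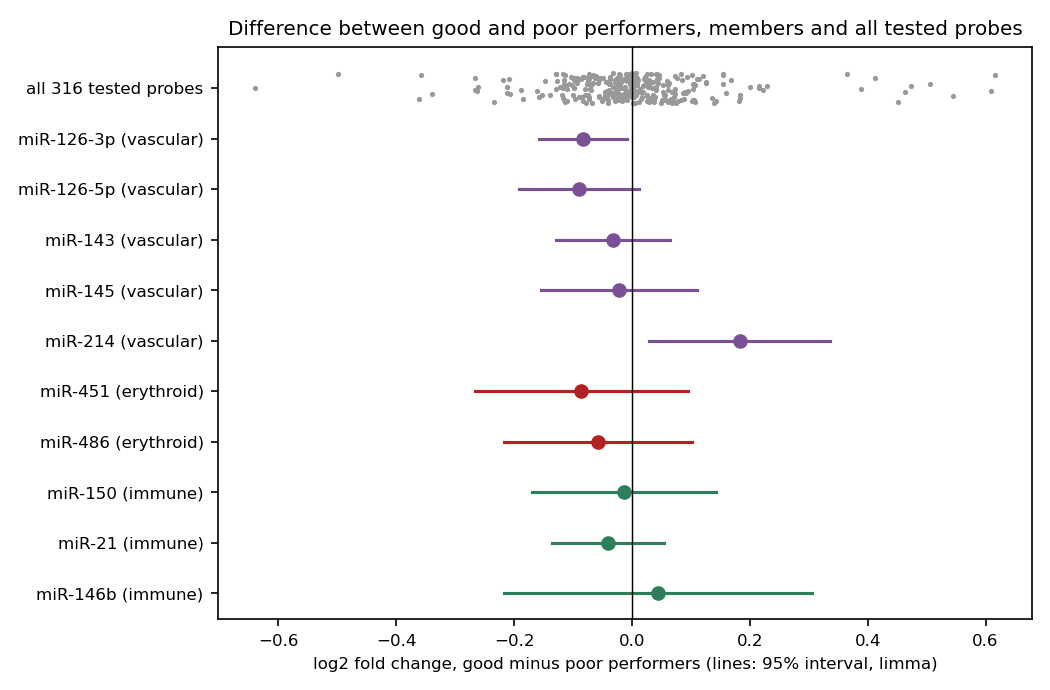
Log2 fold change, good minus poor performers, of each member with its 95% interval from limma, below the values of all 316 tested probes (grey points). The interval holds 0 for 8 of the 10 members, the exceptions being miR-126-3p (-0.083) and miR-214 (0.18), and the members fill the middle of the range of all probes.

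Across the members in the reported setting, the 2 groups did not overlap for 4 of 10, against 50.6% of all tested probes. Good performers were the lower group without overlap for 3 of 10 members, against 27.5% of all tested probes, and the higher group for 1 of 10, against 23.1%. These tallies depended on the processing. In the authors' normalized table the groups of miR-143, miR-145, miR-451, miR-486 and miR-150 also stood apart, with good performers lower. Those of miR-214 overlapped there, and the share over all tested probes was not taken in that table. By raw intensity good performers replicate 2 was the brightest array for 8 of 10 members, and after normalization poor performers replicate 1 was the brightest for 6. Raw means were higher in good performers for 7 members and lower for 3, while normalized means were higher for 2 and lower for 8. The sign thus turned between these scales for 5 members, miR-126-5p, miR-143, miR-145, miR-150 and miR-21. The members' summed raw intensity was 2169 and 2298 in good performers and 2171 and 2178 in poor performers.

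Other miRNAs of the same cell types were followed through a wider list of 25 further probes. Only 7 of the 25 had enough spots at flag 0 to test, and none of the 7 passed (limma; 1 at an unadjusted p under 0.05). Their median log2 fold change was 0.0053. One of the 7, the muscle miRNA miR-133a, was detected on 4 of 6 spots in good performers and 0 of 6 in poor performers. It entered the test through good performers alone, and without it the other 6 had a median of -0.016. Leaving out miR-146a or miR-342-3p in its place would turn the sign of the median too. The probe at an unadjusted p under 0.05 was miR-222, a miRNA of endothelium and many other cells, with 9.25 and 9.30 in good performers and 9.35 and 9.43 in poor performers. The difference was -0.12 ± 0.041 log2 units (SE; adjusted p = 0.227) on the normalized scale. On the raw scale its groups overlapped, at 620.0 and 679.0 in good performers and 612.7 and 680.7 in poor performers. The other tested endothelial probe, miR-221, had 9.12 and 9.11 in good performers and 9.14 and 9.16 in poor performers. Its difference was -0.037 ± 0.027 log2 units (SE; adjusted p = 0.550 by limma). Raw values of miR-221 overlapped too, at 565.0 and 593.7 in good performers and 532.0 and 566.0 in poor performers. On the immune side miR-342-3p had the lowest p, with 7.44 and 7.47 in good performers and 7.41 and 7.39 in poor performers, a difference of 0.052 ± 0.030 log2 units (SE; adjusted p = 0.452).

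Of the 25 further probes, 16 had no spot at flag 0 on any array. They included miR-142-3p and miR-142-5p, which mark all blood-forming lineages, miR-223 of neutrophils and other myeloid cells, and miR-155 of activated macrophages and lymphocytes. These 4 probes, named after their values were seen, had 0 of 48 spots at flag 0 and raw intensities from 52 to 67. These 4 were at blank level in both groups. The immune list was not at blank level throughout: its other probes miR-146a, miR-342-3p and miR-342-5p had all 12 spots at flag 0, with the lowest spots at 104, 153 and 93, as did the members miR-150 and miR-21.

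Signal of other cell types was set beside these values. The 8 neuronal probes had a median log2 fold change of 0.00019 and none passed. Their values ran from -0.067 for miR-9 to 0.14 for miR-128. The groups did not overlap for 4 of the 8, against 50.6% of all tested probes. miR-128 was at an unadjusted p under 0.05 by limma, as were 20.9% of all tested probes. Of the 13 probes of choroid plexus and ependyma, tissues that border the hippocampus, 8 had no spot at flag 0. The 5 tested probes had a median of -0.025 and none passed. Of the 3 oligodendrocyte probes 1 passed, against 5.06% of all tested probes. It was miR-219, with a log2 fold change of -0.27 (adjusted p = 0.025 by limma), and the median of the 3 was -0.086. miR-219 was named after its value was seen. Their part in the differences of the vessel and blood miRNAs was not tested.

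The tested probes outside the members with the most similar pattern over the 4 arrays were found by the Euclidean distance between profiles centred on their own mean. miR-338-3p lay nearest to miR-126-5p (distance 0.023 log2 units), miR-2861 nearest to miR-451 (0.037) and miR-434-5p nearest to miR-21 (0.015). miR-338-3p, an oligodendrocyte miRNA, had 8.32 and 8.28 in good performers and 8.40 and 8.35 in poor performers. With 4 arrays many probes can lie close by, so these distances are a description alone.

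**Figure D4:**
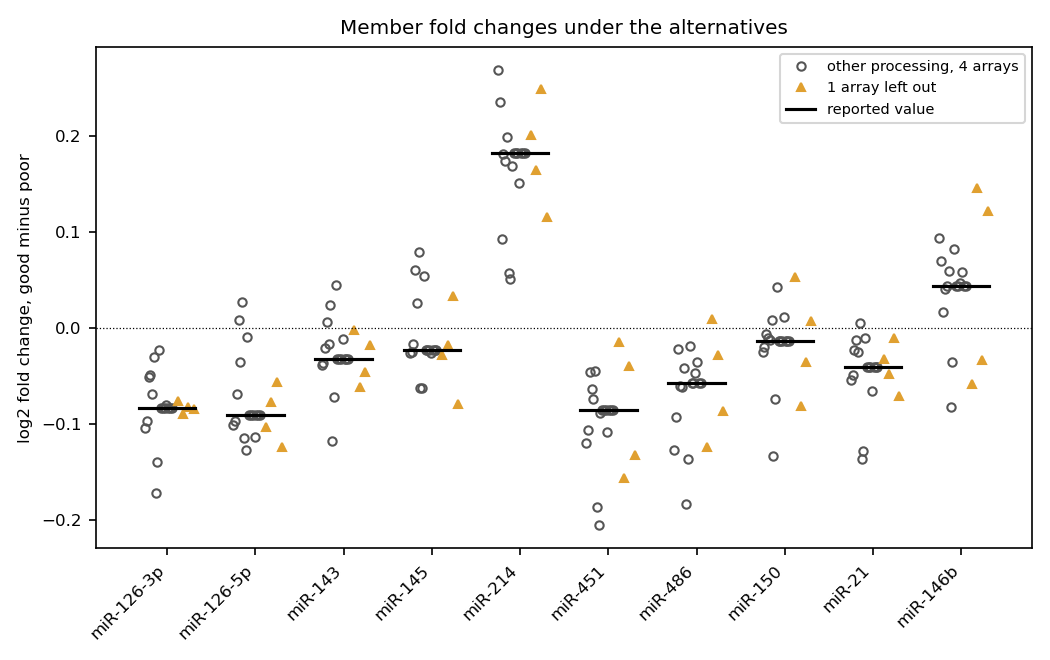
Log2 fold change, good minus poor performers, of each member as reported (black line), under other processing of all 4 arrays (open circles) and with 1 array left out (triangles). miR-214 lies above 0 and miR-126-3p and miR-451 lie below 0 in every setting plotted, while the other 7 members take both signs. Leaving out 1 array could not turn the sign of miR-214 or miR-126-3p, whose groups do not overlap in the reported setting.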

How the data were processed

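Cy5-labelled hippocampal RNA was measured on 4 arrays, 1 sample each. The authors deposited raw intensity per spot with a flag of 0 or -50, and a table of normalized intensity for 383 probes with a log2 ratio of good over poor performers, per the file headers. Their normalization method, software and array design were not stated in the labels or headers. The raw intensity was corrected by normexp with an offset of 50, and log2 values of the 2115 miRNA spots were quantile-normalized before the 3 spots per probe were averaged. A test required 2 or more spots at flag 0 on each array of either group, a condition met by 316 of 705 probes. The test was limma's (version 3.58.1 in R 4.3.3, lmFit with eBayes), two-sided, with Benjamini-Hochberg adjustment and a threshold of 0.05. An exact permutation test of 2 against 2 arrays cannot give a p under 0.333. The offset understates the change of dim probes, and the number of arrays limits the precision.

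The members and lists were chosen with earlier results of these data known. All members are named. From the wider list, probes past the threshold are named, and up to 3 tested probes with the lowest p in each of its vascular, erythroid and immune parts. The nearest profile of the brightest member of each role is named as well. Of 10 members, 5 matched a RefSeq sequence shown here. The fit was tested on simulated data with known changes and independent noise, which cannot address technical repeats or the scaling of the arrays. No label says what a replicate number marks, so replicate numbers were used as a block in an alternative only.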

Additional observations from a re-analysis of the deposited data

How the results depend on the processing

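Each result was recomputed in 20 alternatives, all of them listed with the members known. Members past the threshold numbered 0, and 1 in the authors' normalized table (miR-126-3p at -0.14). All probes past it numbered 16, and 7 at offset 1, 6 when spots were summarised by their median, 31 with spike-in scaling, 37 in the authors' table, 30 with a trended and robust variance model and 0 to 0 without 1 array (40 to 59 at an unadjusted p under 0.05), where fewer arrays remain. With the replicate block, 13 probes and no member passed, and deviations of same-numbered arrays correlated at 0.18 over probes. The members' median of -0.036 was -0.13 with spike-in scaling and -0.10 in the authors' table, where all tested probes had medians of -0.11 and -0.083. It was above 0, at 0.017, in the centred authors' table and, at 0.016, with no normalization, -0.0022 with 75th percentile scaling and -0.075 to -0.030 without 1 array. The 2 dimmest members, miR-486 and miR-146b, had no value where every spot had to be detected. What caused these changes was not tested.

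Signs turned in at least 1 setting for 7 of 10 members, among them miR-126-5p, the second largest in size as reported (-0.090), and none of these values passed. With 75th percentile scaling miR-126-5p had 0.0085, miR-143 0.0058 and miR-145 0.061. With cyclic loess miR-145 had 0.026. Without normalization miR-126-5p had 0.027, miR-143 0.024, miR-145 0.079, miR-150 0.0082 and miR-21 0.0056. miR-146b had -0.083 with spike-in scaling and -0.035 in the authors' table. In the centred authors' table miR-143 had 0.045, miR-145 0.055 and miR-150 0.043, and with the median over spots miR-150 had 0.012. Without 1 array values ran from -0.081 to 0.053 for miR-150, -0.058 to 0.15 for miR-146b, -0.12 to 0.0091 for miR-486 and -0.079 to 0.034 for miR-145. They moved widely with the same sign for miR-451 (-0.16 to -0.015), miR-126-5p (-0.12 to -0.057), miR-143 (-0.062 to -0.0023), miR-21 (-0.070 to -0.010) and miR-214 (0.12 to 0.25). For miR-126-5p, miR-21 and miR-214, whose groups did not overlap in the reported setting, leaving out 1 array could not turn the sign.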

Other observations

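The opposite strands of 5 members had probes of their own, miR-145*, miR-214*, miR-150*, miR-21* and miR-146b*. Over all 4 arrays these had 0 of 60 spots at flag 0, with raw intensities from 56 to 72, inside the range of blank spots. The miR-126 hairpin differed from these in that both of its strands were detected on all 12 spots.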
